A study of Mus musculus with 4 samples.

Results

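The cytoplasmic ribosomal protein genes encode the proteins of the large (Rpl) and small (Rps) ribosomal subunit. They were followed here in nuclei of the 5XFAD mouse brain and in barcodes of the same libraries that held little RNA. Members were chosen by their symbol, pseudogene names left out, and by a level of at least 20 UMIs over all called nuclei, a UMI being 1 tagged transcript molecule. Of 83 symbols that fitted, 81 were members, 49 Rpl or Rplp and 32 Rps genes, among 19488 genes that reached the same level. The level in called nuclei therefore selected the members and is given as a description only. *Rpl3l* lay just inside the limit with 53 UMIs, *Rpl39l* and *Rpl10l* just outside with 5 and 1, and the next member, *Rps27l*, had 828.

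All groups shared the 5XFAD genotype, a transgenic model of amyloid deposition, and an age of 7 to 10 weeks at administration, as the series' design text gives it. Mice received intravenous EVs with little phosphatidylethanolamine (PE-low EV) or much of it (PE-high EV), 6.55 times 10 to the power of 9 vesicles in 100 µL, and no untreated or wild-type library was analysed here. Per the paper these EVs were engineered, rebuilt from the lipids of adipocyte EVs of chow-fed mice and coupled to transferrin. Phosphatidylethanolamine species were added to enrich the PE-high EVs. There were 2 libraries per group and, per the study's methods, each pooled 2 female mice, so single animals cannot be told apart. Nuclei came from sections of frozen brain and were profiled in droplets by 3′-end counting.

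Ribosomal protein mRNAs are among the most abundant messages of any cell. They are translated in the cytoplasm, and their proteins return to the nucleolus, where they are joined to ribosomal RNA before the subunits are exported. In vertebrates these mRNAs begin with a C followed by a run of pyrimidines, the terminal oligopyrimidine (TOP) motif, which couples their translation to growth signals. In single-nucleus data they count as cytoplasmic messages, next to mitochondrial transcripts and the haemoglobin mRNAs of red blood cells.

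The start sites of members from both ends of the order described below are shown so that the letters around the annotated start can be compared. RefSeq start sites (GRCm38.p6) were found for 61 members. Each window has 30 bases on the gene's strand, of which 10 lie before the annotated start, and capitals mark its longest run of at least 5 bases that are all C or T.
*Rpl39* (chrX:37085203-37085232, minus strand): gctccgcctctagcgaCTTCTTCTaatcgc
*Rps10* (chr17:27635225-27635254, minus strand): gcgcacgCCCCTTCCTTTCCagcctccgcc
*Rpl36a* (chrX:134585644-134585673, plus strand): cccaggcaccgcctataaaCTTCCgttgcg
*Rpl35* (chr2:39005112-39005141, minus strand): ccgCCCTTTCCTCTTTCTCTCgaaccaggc
*Rps13* (chr7:116334171-116334200, minus strand): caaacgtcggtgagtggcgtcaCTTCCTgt
*Rps27* (chr3:90213629-90213658, minus strand): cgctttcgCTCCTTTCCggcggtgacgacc
*Rpl6* (chr5:121204491-121204520, plus strand): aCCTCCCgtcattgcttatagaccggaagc
*Rpl5* (chr5:107900518-107900547, plus strand): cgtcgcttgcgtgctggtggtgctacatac
*Rpl7l1* (chr17:46782637-46782666, minus strand): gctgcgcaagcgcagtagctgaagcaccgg
The first 4 had the lowest and the other 5 the highest ratio of nuclei to near-empty barcodes among members with a single listed start. A C followed by at least 4 bases that were all C or T stood exactly at the annotated start in 13 of 61 members (21.3%) and in 3.01% of the 27025 genes of the table, on the gene's strand only. A run of at least 8 C or T anywhere in the window was present in 24 of 61 members (39.3%) and in 13% of all genes. A match is a description of these letters, and annotated starts can be off by some bases. The windows of *Rpl5* and *Rpl7l1* hold no run of 5.

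Libraries held 29472021 to 43272337 UMIs, and 8741 to 13967 barcodes per library were called nuclei. Nuclei were kept where 200 to 2500 genes were detected and mitochondrial UMIs did not exceed 3%, which left 2778 and 2996 in the PE-low EV libraries and 1457 and 3458 in the PE-high EV libraries. Near-empty barcodes were the 45000 at ranks 45000 to 90000 by UMIs in each library, with a mean of 116 to 180 UMIs. The largest of them held 298, 299, 247 and 212 UMIs in the 2 PE-low EV and then the 2 PE-high EV libraries. In the PE-high EV libraries nuclei were called from 405 and 422 UMIs. Doublets were not removed, and no pair of libraries shared more than 4 kept barcodes. PE-high EV replicate 1 stood apart with the fewest kept nuclei and the largest mitochondrial share in called nuclei, 8.92% against 4.57% in the lowest library, and the comparisons of the groups are also given without it.

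Ribosomal protein UMIs were depleted in nuclei by a nearly uniform factor. They made up 5.00%, 4.89%, 6.40% and 5.22% of UMIs in near-empty barcodes, in the order of the 2 PE-low EV and then the 2 PE-high EV libraries, an order kept for all values by library. In called nuclei the shares were 1.20%, 0.903%, 1.86% and 1.14%. In kept nuclei they were 0.696%, 0.618%, 0.836% and 0.701%. No library's kept nuclei came near the lowest near-empty share. The ratio of Rpl to Rps UMIs was 1.42 to 1.44 in near-empty barcodes and 1.41 to 1.48 in kept nuclei, so the subunits moved together.

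**Figure D1:**
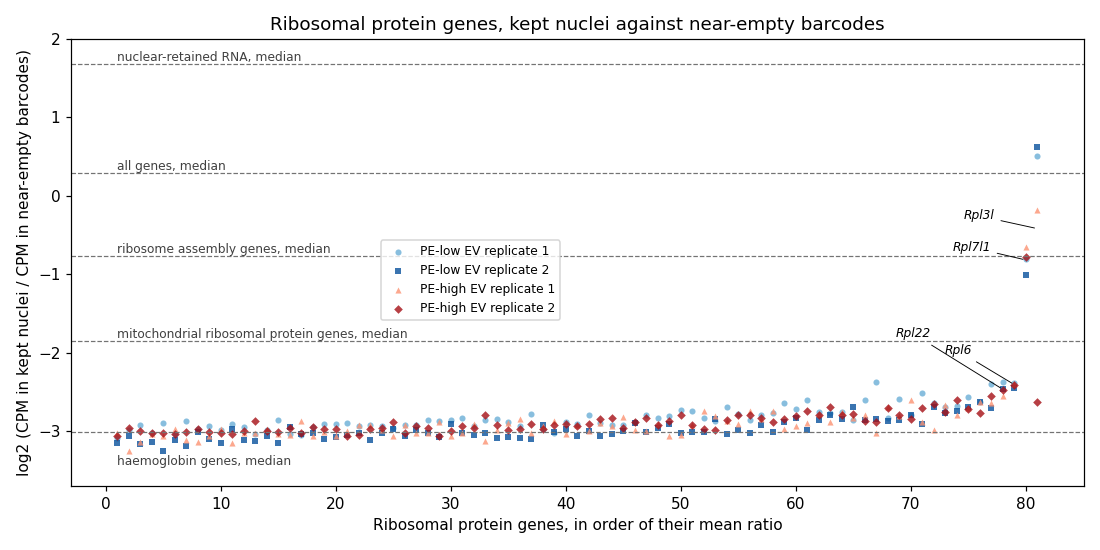
Log2 ratio of CPM (a gene's UMIs scaled to a fixed library total) in kept nuclei to CPM in near-empty barcodes for the 81 ribosomal protein genes, in order of their mean over 4 libraries, with 1 point per library and dashed lines at the medians of other gene lists. All but *Rpl7l1* and *Rpl3l* lie in a band from -3.08 to -2.41, most of them just above the haemoglobin median of -3.01.

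Gene by gene, the median log2 ratio of kept nuclei to near-empty barcodes was -2.86 and -3.01 in PE-low EV and -2.93 and -2.92 in PE-high EV libraries, a level 7.72-fold lower in nuclei. The ratio adds 0.5 UMI to each sum. Of 81 members, 80 were lower in kept nuclei in 4 of 4 libraries, as were 35.3% of all 19488 genes, and 79 were at least 4-fold lower in 4 of 4, as were 5.8% of all genes. The median over all genes was 0.29. Members were picked by their level in nuclei, so these counts are a description and no test. Means of 79 members spanned only -3.08 to -2.41. Neither the length of the gene (Spearman's rho 0.01 over 81 members) nor that of the transcript (rho -0.05) went with the ratio.

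The most abundant members behaved alike. *Rplp1*, a protein of the acidic stalk that recruits elongation factors, had 1579, 1741, 2457 and 1801 CPM in near-empty barcodes and 209, 194, 279 and 225 CPM in kept nuclei. Its ratio was -3.06 ± 0.12 (SD, n = 4 libraries), and the 4 libraries of each kind did not overlap. *Rpl13*, of the large subunit, lay at -3.00 ± 0.06. Among other members with many UMIs in called nuclei, *Rpl19*, *Rpl9*, *Rps24*, *Rpsa*, *Rps29*, *Rps27a* and *Rpl27a* had ratios from -3.03 to -2.84. *Rpl19* shares its strand with the overlapping gene *Gm11629*, and 21 members have an overlapping gene on the other strand.

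At the low end stood *Rpl39*, with 280, 373, 629 and 359 CPM in near-empty barcodes and 32.7, 42.1, 77.0 and 42.8 CPM in kept nuclei, a ratio of -3.08 ± 0.05. *Rpl39* lies on the X chromosome, encodes a small protein of the exit tunnel and was the most depleted member. *Rpl7*, *Rplp1*, *Rps10*, *Rpl36a* and *Rpl35* followed between -3.07 and -3.05. These neighbours in the order differed by less than the spread between their libraries.

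At the high end, *Rpl6* had 744, 624, 758 and 669 CPM in near-empty barcodes and 142, 114, 144 and 126 CPM in kept nuclei. Its ratio was -2.41 ± 0.03, and its 4 libraries spanned only -2.45 to -2.39. *Rpl22* (-2.47 ± 0.07), *Rps27* (-2.58 ± 0.14), *Rpl5* (-2.67 ± 0.07) and *Rps13* (-2.68 ± 0.07) came next. *Rpl5* encodes a protein that carries the 5S ribosomal RNA into the assembling large subunit.

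The clear exception was *Rpl7l1*, a paralog of *Rpl7* on chromosome 17 (46773907 to 46782672) whose product takes part in making the large subunit. It had 40.3, 36.2, 32.6 and 35.9 CPM in near-empty barcodes and 23.0, 18, 20.5 and 20.8 CPM in kept nuclei. Its ratios of -0.81, -1.01, -0.66 and -0.78 were above those of the other members with at least 200 UMIs in every library, and *Rpl7* itself stood at -3.07 ± 0.13. A nucleus held 9.23 ± 0.983 times as many *Rpl7l1* UMIs as a near-empty barcode, against 2.17 ± 0.314 times for the members summed (mean ± SD, n = 4). *Rpl7l1* was described after its value had been seen in an earlier pass, and reads of near-identical copies could be split between genes.

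The other paralogs were strongly depleted like their partners, except *Rpl3l*, which had too few UMIs. *Rpl22l1*, at -2.76 ± 0.11, lay below *Rpl22*, at -2.47 ± 0.07, in 4 of 4 libraries. The values were less apart for *Rps27l*, a p53 target in other systems, at -2.78 ± 0.29 and *Rps27* at -2.58 ± 0.14. *Rpl3l*, which is known from heart and skeletal muscle, had 5, 9, 1 and 0 UMIs in kept nuclei and 4, 4, 3 and 2 in near-empty barcodes, too few for an order, while *Rpl3* lay at -2.96 ± 0.10.

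Genes of related function took other places in the same comparison. Among fusion and associated genes, *Fau* (-3.01 ± 0.10) and *Rack1* (-2.80 ± 0.14) were lower in nuclei in 4 of 4 libraries. The 18 genes of elongation and other TOP mRNAs had a median of -2.36, from *Tpt1* at -3.02 to *Eif4b* at -0.88. The 20 genes of ribosome assembly had a median of -0.77, with 15 lower in 4 of 4 libraries, *Ncl* at -1.92 ± 0.09 and *Polr1a*, the catalytic subunit of RNA polymerase I, at 0.86 ± 0.22. The 78 genes of the mitochondrial ribosome, which are nuclear genes translated in the cytoplasm, had a median of -1.85, and 73 of them were lower in 4 of 4.

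Other cytoplasmic and mitochondrial transcripts lay near the members. The 4 haemoglobin genes had a median of -3.01, close to that of the members, the 15 other cytoplasmic messages one of -2.84 and the 13 mitochondrially encoded transcripts one of -2.59. The mitochondrial value was partly fixed in advance. Kept nuclei were limited to 3% mitochondrial UMIs, whereas near-empty barcodes had no such limit and held 10.7% to 14.2%. The 8 nuclear-retained RNAs had a median of 1.68, with *Meg3* at 2.31 ± 0.20 and *Malat1* at 0.74 ± 0.20, but *Peg13* at -2.30 ± 0.33. The 7 hosts of small nucleolar RNAs, many of them TOP transcripts, had a median of -1.68.

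Counted per barcode, a kept nucleus held 13.9 to 20.7 times as many UMIs in all as a near-empty barcode but only 1.93 to 2.61 times as many ribosomal protein UMIs. The same multiple was 1.80 to 2.38 for haemoglobin, 2.06 to 2.71 for the cytoplasmic messages, 6.52 to 9.58 for ribosome assembly genes and 24.6 to 35.8 for nuclear-retained RNAs. In every library the multiple of the ribosomal protein genes was closer to that of haemoglobin than to that of the assembly genes. How much of the members' UMIs in nuclei came from free RNA was not tested.

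**Figure D2:**
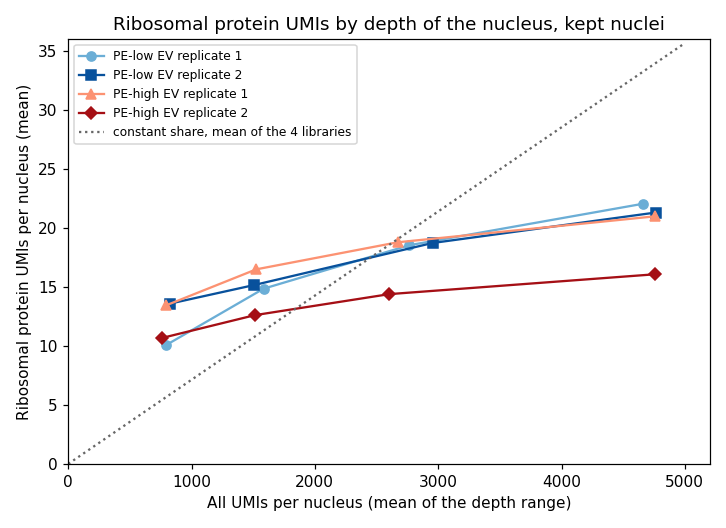
Mean ribosomal protein UMIs per kept nucleus against mean UMIs per nucleus, for nuclei with up to 1000, 1000 to 2000, 2000 to 4000 and over 4000 UMIs, 1 line per library. The dotted line is a constant share, and all 4 libraries climb far less steeply.

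The number of ribosomal protein UMIs grew far less than the depth of the nucleus. In PE-low EV replicate 1, nuclei with up to 1000 UMIs held 10.1 and those with over 4000 held 22.0 ribosomal protein UMIs, while all UMIs went from 796 to 4659 per nucleus. The same ends were 13.6 and 21.3 in PE-low EV replicate 2, 13.4 and 21.0 in PE-high EV replicate 1 and 10.7 and 16.1 in PE-high EV replicate 2. The share was 1.27% in the shallowest and 0.473% in the deepest nuclei of the first library. Between nuclei above and below the median depth of their library, all UMIs differed 1.96 to 2.07-fold and members' UMIs 1.17 to 1.29-fold. The median gene differed by 0.81 to 0.83 on the log2 scale and the median member by 0.22 to 0.36.

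Members differed in this too. *Rpl7l1* led with log2 differences of 0.23, 1.22, 1.16 and 0.65, wide apart between libraries. *Rpl22* (0.53 ± 0.10), *Rpl15* (0.50 ± 0.09), *Rpl29* (0.47 ± 0.11) and *Rps2* (0.45 ± 0.13) followed, and *Rpl5* and *Rpl6* stood in places 6 and 8 of 81. *Rpl36a*, at 0.07 ± 0.08, was next to last.

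**Figure D3:**
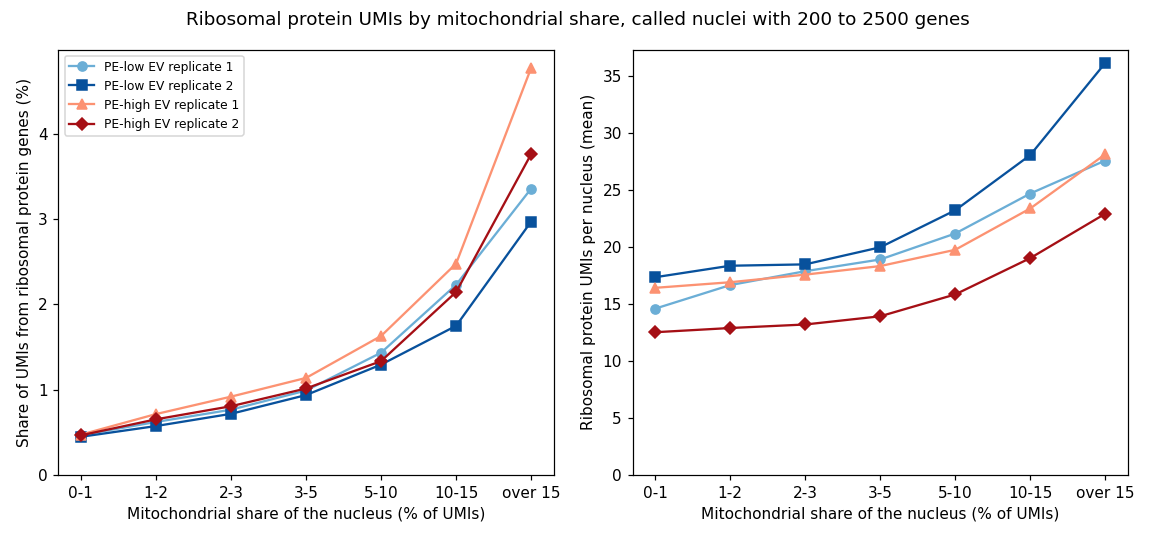
Share of UMIs from ribosomal protein genes (left) and ribosomal protein UMIs per nucleus (right) for called nuclei with 200 to 2500 genes, by the mitochondrial share of the nucleus, 1 line per library. Both go up with the mitochondrial share in each library, the share from about 0.45% to between 2.97% and 4.78%.

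The share was tied to the mitochondrial share of a nucleus. In nuclei with up to 1% mitochondrial UMIs it was 0.467%, 0.447%, 0.473% and 0.465%, and the 4 libraries were closest there. At 2 to 3% it was 0.717% to 0.918%, at 5 to 10% it was 1.29% to 1.63%, and above 15% it was 3.36%, 2.97%, 4.78% and 3.76%. Ribosomal protein UMIs per nucleus went from between 12.5 and 17.4 in the first range to between 22.9 and 36.2 in the last, while all UMIs per nucleus were between 2696 and 3882 in the first and between 590 and 1218 in the last. The level given for kept nuclei thus depends on the limit of 3%.

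Nuclei were sorted into 7 classes by markers, after clustering without the ribosomal protein and mitochondrial genes. All 8 markers of striatal projection neuron-like, 6 of astrocyte-like, 6 of oligodendrocyte-like, 5 of oligodendrocyte precursor-like and 8 of microglia-like nuclei were highest in their own class, and 5 of 8 in excitatory and 5 of 8 in inhibitory neuron-like nuclei. The summed inhibitory markers were higher in another class (2572 against 2260 CPM), and the summed excitatory markers were higher in near-empty barcodes (3158 CPM) than in excitatory neuron-like nuclei (2240 CPM). No marker was at 0 in its class.

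**Figure D4:**
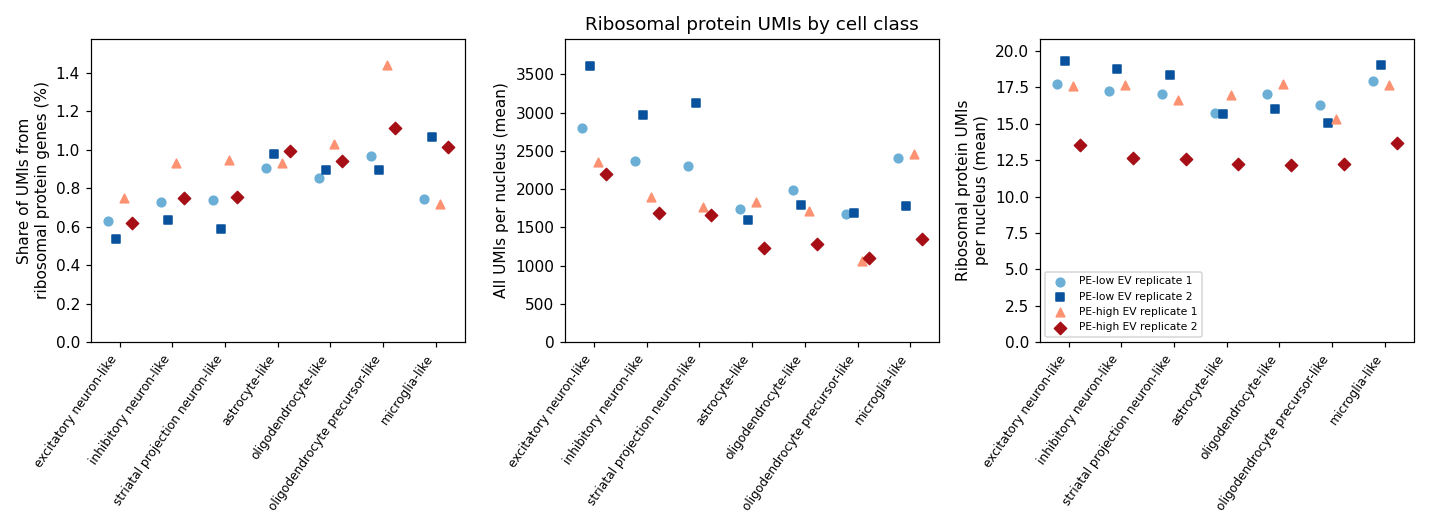
Share of UMIs from ribosomal protein genes (left), all UMIs per nucleus (middle) and ribosomal protein UMIs per nucleus (right) in 7 cell classes of kept nuclei, 1 point per library. The share is lowest in excitatory neuron-like nuclei in 3 of 4 libraries, whereas ribosomal protein UMIs per nucleus stay between 12.1 and 19.3.

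As a share of UMIs, ribosomal protein genes were lowest in neurons and highest in glia by the means over 4 libraries. Excitatory neuron-like nuclei had 0.633% ± 0.0884, inhibitory 0.761% ± 0.125 and striatal projection neuron-like nuclei 0.758% ± 0.146 (mean ± SD, n = 4 libraries). Microglia-like nuclei had 0.885% ± 0.179, oligodendrocyte-like 0.931% ± 0.0764, astrocyte-like 0.951% ± 0.0407 and oligodendrocyte precursor-like nuclei 1.10% ± 0.244. Within each library the excitatory share lay below the inhibitory and the striatal one. The other neighbours in this order overlapped between libraries. PE-high EV replicate 1 held only 19 to 48 nuclei of each glial class, and its microglia-like share of 0.718% lay below that of its excitatory neuron-like nuclei, 0.749%. Its inhibitory (0.932%) and striatal projection neuron-like shares (0.946%) also lay above its astrocyte-like share (0.929%).

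By member, 48 of 81 had their highest mean log2 CPM in oligodendrocyte precursor-like, 14 in astrocyte-like, 12 in oligodendrocyte-like and 6 in microglia-like nuclei. For 70 the lowest was in excitatory neuron-like nuclei. The same counts were not made over all genes. In PE-high EV replicate 1 the oligodendrocyte precursor-like class held only 20 nuclei and 306 ribosomal protein UMIs over all members. Its CPM of single members thus rest on few UMIs. The class means add 0.5 UMI to each sum, which raises low counts most where sums are small. *Rpl3l*, with 0 UMIs in oligodendrocyte precursor-like and 3 in excitatory neuron-like nuclei, is counted as highest in the former and lowest in the latter. *Rps27l* is counted likewise, with 4 UMIs in oligodendrocyte precursor-like nuclei. Members above excitatory neuron-like nuclei in 4 of 4 libraries were 53 of 78 in oligodendrocyte precursor-like nuclei (33.3% of all genes with at least 10 UMIs in both), 55 of 79 in oligodendrocyte-like (29.3%), 54 of 79 in astrocyte-like (31.6%) and 24 of 78 in microglia-like nuclei (30.1%). In microglia-like nuclei the count was thus near that of all genes.

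The widest range over classes belonged to *Rpl39*, *Rplp0*, *Rps9*, *Rps15a* and *Rpl18*, with 1.13 to 1.41 on the log2 scale against a median of 0.88 over the 77 members with at least 10 UMIs in every class. *Rpl39* had 38.1 CPM in excitatory neuron-like and 95.9 CPM in microglia-like nuclei over the 4 libraries, the latter from 32 UMIs. *Rplp0*, which anchors the stalk, went from 36.4 CPM in excitatory neuron-like to 79.3 CPM in oligodendrocyte precursor-like nuclei, and *Rps9*, near the messenger entry channel, from 60.4 to 129 CPM. The glial values of these genes rest on 27 to 44 UMIs each.

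As a number per nucleus the classes were much closer. In PE-low EV replicate 1, ribosomal protein UMIs per nucleus ran from 15.7 in astrocyte-like to 17.9 in microglia-like nuclei, 1.14-fold, while all UMIs per nucleus differed 1.67-fold. In PE-low EV replicate 2 the range was 15 to 19.3, in PE-high EV replicate 1 it was 15.3 to 17.7 and in PE-high EV replicate 2 it was 12.1 to 13.7, with 2.26, 2.32 and 2.01-fold ranges of all UMIs. The 4 haemoglobin genes, markers of red blood cells, were counted at up to 150 UMIs per 1000 nuclei of a class. That highest value rests on 3 UMIs in the 20 oligodendrocyte precursor-like nuclei of PE-high EV replicate 1. The part of haemoglobin RNA in the class values was not tested.

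With nuclei of up to 15% mitochondrial UMIs, the share differed 2.53 to 2.95-fold between classes and ribosomal protein UMIs per nucleus 1.10 to 1.22-fold, at ranges of all UMIs of 2.80 to 3.48-fold. Kept nuclei with 1000 to 2000 UMIs were compared as an addition made once the data were known. There the mean share of the 4 glial classes was 1.21, 1.20, 1.07 and 1.056 times that of the 3 neuronal classes, with only 4 microglia-like and 4 oligodendrocyte precursor-like nuclei in PE-high EV replicate 1. With up to 15% mitochondrial UMIs the same ratios were 1.35, 1.35, 1.23 and 1.24. Depth was not equal inside this range. In kept nuclei of PE-low EV replicate 1 its mean was 1638 UMIs in excitatory neuron-like nuclei. It was 1317 in astrocyte-like, 1334 in oligodendrocyte-like, 1263 in oligodendrocyte precursor-like and 1619 in microglia-like nuclei. With each kept nucleus thinned to 500 UMIs, the glial share was 1.53 times the neuronal one. Thinning keeps the expected share of each nucleus and only weights nuclei alike, so it cannot separate depth from share. Total UMIs per nucleus thus moved with the class order, and its part in the shares beyond these values was not tested.

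PE-high and PE-low EV libraries were then compared over all genes. In all kept nuclei, no member passed the adjusted p of 0.1 with edgeR's quasi-likelihood test, like all 15190 genes (0.0% called), and DESeq2 called no member either. At an unadjusted p under 0.05 there were 39 of 80 members with edgeR and 24 with DESeq2. Over all 15190 genes there were 723 (4.76%) with edgeR and 235 with DESeq2. The median member differed by 0.27 on the log2 scale (PE-high over PE-low EV) and 74 of 80 were higher, while the median over all genes tested was near 0. Of 80 members, 44 were higher in both PE-high EV libraries than in both PE-low EV libraries, as were 17.0% of all genes. Lower in both were 0 members, beside 2494 of 15190 genes.

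The members with the smallest p were *Rps18* and *Rps14*, both of the small subunit. *Rps18* had 59.7 and 56.1 CPM in PE-low EV and 85.7 and 73.3 CPM in PE-high EV libraries after TMM scaling. The groups did not overlap, and the difference of 0.45 ± 0.12 (SE) on the log2 scale had an adjusted p of 0.862 with edgeR. *Rps14* had 113 and 98.8 against 148 and 131 CPM, 0.39 ± 0.11 on the log2 scale with the same adjusted p. The members' share of UMIs was 0.657% ± 0.0551 in PE-low EV and 0.769% ± 0.0959 in PE-high EV libraries (mean ± SD, n = 2 each). An exact permutation test, two-sided, gave p = 0.333, the smallest that 2 against 2 libraries allow. Per nucleus the order was the other way, 17.8 ± 0.714 against 15.2 ± 3.07 ribosomal protein UMIs.

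Leaving out PE-high EV replicate 1 took the median difference in kept nuclei to 0.14 and the members at an unadjusted p under 0.05 to 0, with 0 called. Leaving out PE-low EV replicate 1 or 2 gave 49 and 21 members called by edgeR, beside 5.93% and 1.65% of all genes, and leaving out PE-high EV replicate 2 gave 0 called with 40 at that p. A replicate block gave 20 called, beside 1.3% of all genes. With no limit on mitochondrial UMIs the median difference was 0.49, with 0 called.

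The near-empty barcodes of the same libraries showed the same sizes. No member of 80 was called by edgeR (0.0% of 14159 genes), 35 had an unadjusted p under 0.05 (4.64% of all genes) and the median difference was 0.33, with 79 of 80 higher. DESeq2 gave an adjusted p for only 708 genes, of which it called 4.24%, 4 members among them. It had 29 members at an unadjusted p under 0.05, beside 247 of 14159 genes. Of 80 members, 46 were higher in both PE-high EV libraries, as were 16.3% of all genes. *Rps15a* had 402 and 427 CPM in PE-low EV and 709 and 500 CPM in PE-high EV near-empty barcodes, 0.55 ± 0.18 with an adjusted p of 0.87. *Rpl39* had 280 and 356 against 666 and 359 CPM, 0.69 ± 0.23 with the same adjusted p, and PE-high EV replicate 2 hardly exceeded PE-low EV replicate 2. *Rpl39* in kept nuclei, from the same libraries, had 32.3 and 41.4 against 79.5 and 43.0 CPM and 0.67 ± 0.23. Without PE-high EV replicate 1, the median in near-empty barcodes was 0.11.

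The difference between the groups was itself compared between kept nuclei and near-empty barcodes. The interaction had a median of -0.03 over 80 members on the log2 scale, 27 of them above 0, and edgeR called 0 of them (0.00625% of 15993 genes), with 0 at an unadjusted p under 0.05 (3.72% of all genes) and 0 calls with DESeq2. The median depended on the mitochondrial limit. At 15% it was 0.03 with 58 members above 0, and with no limit it was 0.20 with 80 of 80 above 0, 1 of them at an unadjusted p under 0.05 and 0 called. *Rpl39* had an interaction of 0.05 ± 0.13, *Rplp1* of -0.05 ± 0.13 and *Rpl7l1* of 0.15 ± 0.18. No difference between barcode types was detectable by the test at this number of libraries.

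By class, edgeR and DESeq2 called no member in any of the 7. EdgeR called 0.0076% of 13152 genes in excitatory neuron-like, 0.0472% of 10591 in striatal projection neuron-like and 0.0% in each of the other 5 classes. Members at an unadjusted p under 0.05 were 31 of 80 in excitatory, 17 of 79 in inhibitory and 27 of 80 in striatal projection neuron-like nuclei, beside 4.64%, 3.66% and 4.47% of all genes. With DESeq2 they were 12, 6 and 5 members, beside 128 of 13152, 48 of 10530 and 81 of 10591 genes. With edgeR they were 0 of 73 in astrocyte-like, 3 of 74 in oligodendrocyte-like, 2 of 43 in oligodendrocyte precursor-like and 1 of 28 in microglia-like nuclei, beside 7.03%, 4.73%, 2.12% and 4.14% of all genes. With DESeq2 they were 0 in each, beside 72 of 3754, 30 of 3890, 2 of 1651 and 18 of 1569 genes. Median differences were 0.25, 0.31 and 0.31 in the neuronal classes and 0.11, 0.21, 0.40 and 0.05 in the glial classes in that order. Without PE-high EV replicate 1 the medians were 0.11, 0.16 and 0.18 in the neuronal classes, with 0, 3 and 1 members at that p, and 0.09, 0.03, 0.36 and 0.23 in the glial classes, with 1, 0, 0 and 0. Leaving out any 1 library gave medians from 0.11 to 0.40 in excitatory, 0.16 to 0.50 in inhibitory and 0.18 to 0.46 in striatal projection neuron-like nuclei. In the glial classes they ran from -0.15 to 0.13 in astrocyte-like, 0.03 to 0.26 in oligodendrocyte-like, 0.26 to 0.56 in oligodendrocyte precursor-like and -0.29 to 0.44 in microglia-like nuclei, so the sign turned in astrocyte-like and microglia-like nuclei.

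The glial counts changed with the limit on mitochondrial UMIs, though little in microglia-like nuclei at 10%. At 10% mitochondrial UMIs, 33 of 79 members in astrocyte-like (median 0.36), 34 of 80 in oligodendrocyte-like (0.35), 19 of 78 in oligodendrocyte precursor-like (0.37) and 2 of 79 in microglia-like nuclei (0.17) had an unadjusted p under 0.05. Over all genes the counts at 10% were 415 of 8706, 644 of 10223, 304 of 5692 and 322 of 6918 in the same order. With no limit the member counts were 40 of 80, 42 of 80, 29 of 78 and 16 of 79. Over all genes they were then 455 of 9257, 627 of 10840, 351 of 6207 and 359 of 7896. No member was called. Whether neuronal and glial classes differed in this comparison was not tested. At 3%, in the glial classes the members that passed the filter on low counts are not all members.

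In excitatory neuron-like nuclei the stalk genes had the smallest p among members with separate groups. *Rplp2* had 42.1 and 42.2 CPM in PE-low EV and 72.8 and 55 CPM in PE-high EV libraries (0.57 ± 0.16), and *Rplp1* 181 and 161 against 243 and 207 CPM (0.39 ± 0.12), with adjusted p values of 0.742 and 0.764 from edgeR. *Rps27l* (-0.46 ± 0.38) and *Rpl7l1* (-0.15 ± 0.22) were the only members lower in both PE-high EV libraries there, beside 2057 of 13152 genes. Higher in both were 38 of 80 members, beside 2195 of 13152 genes. In striatal projection neuron-like nuclei *Rps18* had 57.9 and 52.5 against 118 and 82.8 CPM (0.81 ± 0.20, adjusted p = 0.365 from edgeR), *Rpl41* 97.6 and 79.6 against 202 and 118 CPM (0.79 ± 0.21), and *Rpl7a* (-0.14 ± 0.22) and *Rps27l* (-0.32 ± 0.53) were lower. In inhibitory neuron-like nuclei *Rpl21* (0.68 ± 0.17) and *Rpl41* (0.74 ± 0.20) had the smallest p. With a replicate block, 2, 3 and 2 members were called in excitatory, inhibitory and striatal projection neuron-like nuclei, beside 0.335%, 0.323% and 0.482% of all genes.

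The glial classes had members apart in both directions, none called, but not in equal numbers. In astrocyte-like nuclei 14 of 73 were higher and 9 lower in both PE-high EV libraries (717 and 661 of 3754 genes). The counts were 24 and 7 of 74 in oligodendrocyte-like nuclei (703 and 672 of 3890 genes). They were 19 and 3 of 43 in oligodendrocyte precursor-like (236 and 246 of 1651 genes) and 2 and 6 of 28 in microglia-like nuclei (259 and 266 of 1569 genes). In astrocyte-like nuclei *Rpl36* (0.89 ± 0.42) and *Rps15* (0.58 ± 0.34) were higher and *Rpl15* (-0.74 ± 0.37) and *Rpl7* (-0.77 ± 0.42) lower in PE-high EV libraries. In oligodendrocyte-like nuclei *Rps25* (0.94 ± 0.35) and *Rps15a* (0.88 ± 0.37) were higher, *Rps9* (-0.61 ± 0.43) and *Rpsa* (-0.40 ± 0.36) lower. In oligodendrocyte precursor-like nuclei *Rps15a* (1.29 ± 0.57) and *Rps21* (1.08 ± 0.52) were higher, *Rpsa* (-0.67 ± 0.46) and *Rpl38* (-0.56 ± 0.47) lower. In microglia-like nuclei *Rpl13* (0.53 ± 0.39) and *Rpl23* (0.22 ± 0.42) were higher, *Rpl19* (-1.11 ± 0.51) and *Rpl13a* (-0.77 ± 0.59) lower. These differences are log2 values ± SE.

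**Figure D5:**
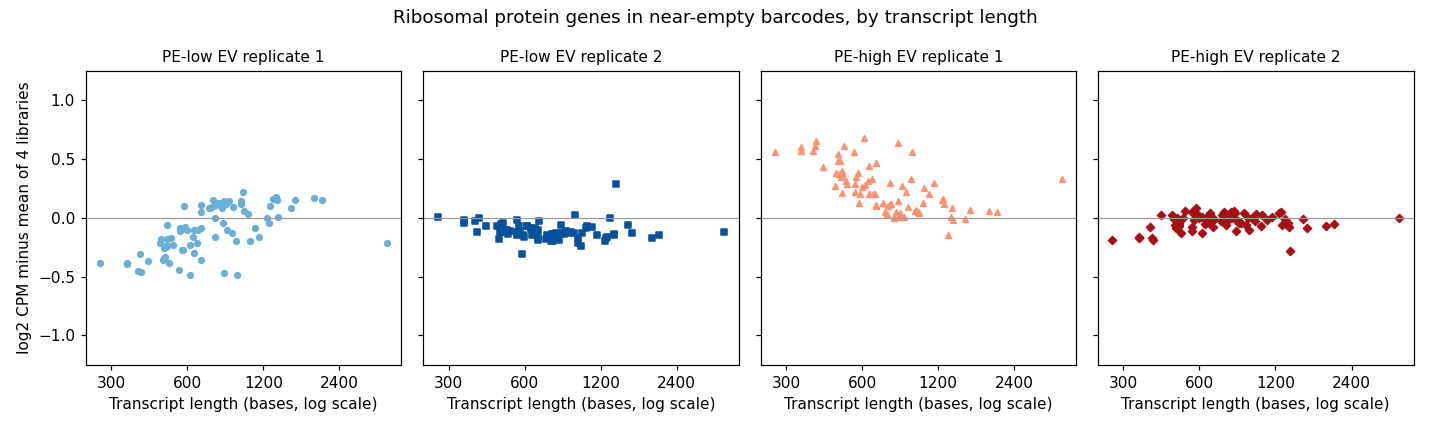
Log2 CPM of each of the 81 ribosomal protein genes in near-empty barcodes minus its mean over the 4 libraries, against the length of its transcript in bases (log axis), 1 panel per library. Short transcripts lie above 0 in PE-high EV replicate 1 and below 0 in PE-low EV replicate 1.

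Members of different transcript length differed between libraries. The 27 shortest transcripts (up to 581 bases) lay 0.38 above their mean over the libraries in near-empty barcodes of PE-high EV replicate 1 and 0.27 below it in PE-low EV replicate 1 (log2 medians 0.38 and -0.27), whereas the 27 longest (from 842 bases) had medians of 0.08 in both. In PE-low EV replicate 2 and PE-high EV replicate 2 the medians of short transcripts were -0.11 and -0.05. Over 81 members, Spearman's rho with transcript length was 0.68, -0.32, -0.70 and 0.17 in the 4 libraries, a description since the genes share each library. In kept nuclei rho was 0.66, -0.01, -0.64 and 0.12.

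*Rpl41*, of 509 bases in the annotated transcript, had deviations of -0.38, -0.10, 0.61 and -0.13 in near-empty barcodes, and *Rps29*, of 390 bases, of -0.31, -0.12, 0.61 and -0.17. *Rpl3*, of 1351 bases, had 0.18, -0.15, 0.01 and -0.04. Among genes that are not members, 174 with transcripts up to 581 bases had medians of -0.16, -0.07, 0.17 and 0.04 and 6534 with transcripts from 842 bases medians of 0.01, 0.06, -0.06 and 0.01. In near-empty barcodes the other short genes thus lay on the same side as the short members in PE-low EV replicate 1 and PE-high EV replicate 1, by less. In kept nuclei the 205 other short genes had medians of -0.02, -0.11, 0.07 and 0.01, against -0.19, -0.19, 0.44 and -0.05 for the short members.

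The same length order ran through the comparison of the groups. In kept nuclei the 27 short members had a median difference of 0.44 (PE-high over PE-low EV, log2) with 21 at an unadjusted p under 0.05, and the 26 long members tested one of 0.12 with 6. In near-empty barcodes the medians were 0.46 and 0.13, with 24 and 4 at that p. The interaction with barcode type had medians of -0.04 and -0.02. Differences in fragment size or RNA quality between libraries cannot be told apart from the treatment here, and their part in these values was not tested.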

How the data were processed

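Nuclei of 5XFAD brains after PE-low or PE-high EV administration were profiled in 4 libraries. The authors aligned reads with Cell Ranger 7.1.0 to mm10 (per the labels) and deposited unfiltered UMI counts per gene and barcode, and the deposited gene and barcode lists gave names and order. Whether intronic reads were counted is not given in the sources used here. Nuclei were called here by a knee, 10 times below the 0.99 quantile of UMIs, and by a test of other barcodes with at least 500 UMIs against barcodes ranked 45000 to 90000, the near-empty barcodes (10000 simulations, FDR 0.01). The thresholds on genes and mitochondrial UMIs follow the study's methods. Kept nuclei were clustered on 2000 variable genes, 30 components and 20 neighbours (Leiden resolution 0.8, scanpy 1.11.5), without the ribosomal protein and mitochondrial genes. The thresholds for naming clusters were set with the clusters in view and revised. UMIs were summed per library and class, and genes passing filterByExpr were tested with edgeR 4.0.16 (quasi-likelihood, TMM, R 4.3.3, Benjamini-Hochberg over all tested genes), with DESeq2 1.42.0 as an alternative. The model had no covariate, and the interaction had a term for each library. Alternatives were a replicate block, no filter on low genes, other limits on mitochondrial UMIs and genes, another set of near-empty barcodes, knee calls alone, another clustering resolution, thinned nuclei and leaving out each library. The tests were tried on simulated data. Gene positions and transcript lengths come from GENCODE M21.

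The members and gene lists were chosen with earlier results of these data known. Genes named in the text were the 10 members with most UMIs, the 6 highest and 6 lowest ratios among members with at least 200 UMIs, paralogs with their partners, the 5 widest ranges over classes, the members at the limit of 20 UMIs and, per comparison of the groups, the 2 higher and 2 lower members with the smallest p whose groups did not overlap. Other names were picked with their values known. Not every gene under this rule is reported here. With 2 libraries of pooled mice per group, p-values measure the spread between these libraries.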

Additional observations from a re-analysis of the deposited data

How the results depend on the processing

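The count of ribosomal protein genes called between the groups was 0 in all 10 comparisons and 0 in 87 of 107 alternatives. An adjusted p of 0.05, which cannot raise a count of 0, is left out of these. The replicate numbers do not pair the libraries by any label, and deviations of same-numbered libraries had a correlation of 0.11 over all genes in kept nuclei and in near-empty barcodes, but of -0.76 and -0.90 over the members. With a replicate block, 20 members were called in all kept nuclei, 2 in excitatory, 3 in inhibitory and 2 in striatal projection neuron-like nuclei, and 0 in the near-empty barcodes, the glial classes and the interaction. Without a filter on low genes the counts were 13 in all kept nuclei, 1 in excitatory, 1 in striatal projection neuron-like nuclei and 11 in near-empty barcodes, beside 0.578%, 0.152%, 0.0947% and 0.533% of all genes, and DESeq2 called 4 in near-empty barcodes, where 708 genes had an adjusted p. Leaving out 1 library gave 0 to 49 in all kept nuclei, 0 to 12 in excitatory, 0 to 5 in inhibitory, 0 to 11 in striatal projection neuron-like nuclei and 0 to 4 in near-empty barcodes, assuming that a lone library varies like the pair. Counts above 0 came without PE-low EV replicate 1, PE-low EV replicate 2 or PE-high EV replicate 2, and without PE-high EV replicate 1 the count was 0 in each comparison. Fits without 1 library leave a lone library in a group, so their counts alone do not show whether members stand out from all genes. Over these fits the median member differed by 0.14 to 0.37 on the log2 scale in all kept nuclei. In near-empty barcodes it differed by 0.11 to 0.48. The fit on barcodes with 10 to 50 UMIs tested only 13 members. The cause was not tested.

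The median log2 ratio of kept nuclei to near-empty barcodes, -2.95, was -2.69, -2.43, -2.32 and -2.08 with limits of 5%, 10% and 15% on mitochondrial UMIs and with none, -3.11 with mitochondrial UMIs left out of the total and -2.32 against barcodes with 10 to 50 UMIs. It was negative in all 13 alternatives, and from -2.96 to -2.92 without 1 library. The log2 ratio of the glial to the neuronal share, 0.44, was 0.74, 0.90, 1.03 and 0.91 under the same limits, 0.61 with nuclei thinned to 500 UMIs, 0.18 in nuclei with 1000 to 2000 UMIs (added after seeing the data) and 0.36 to 0.51 without 1 library. Per nucleus it was -0.08, from -0.14 to -0.04 in 10 alternatives added later. The smallest library held 19 microglia-like nuclei, and only 28 members passed the filter on low counts in that class.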
